A study of Mus musculus with 2 samples.

Results

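Arterial endothelial cells (ECs) of the mouse lung were described in control lungs and in lungs reached by circulating melanoma cells. They numbered 136 of the 13035 ECs of both libraries (74 control and 62 metastatic cells), among 13600 barcodes that passed the filters on gene number and mitochondrial RNA. The cells were chosen by measured values. A barcode had to show 1000 to 5000 genes, under 20% mitochondrial UMIs, at least 2 of the 4 endothelial genes Pecam1, Cdh5, Cldn5 and Egfl7, and no UMI of Ptprc, the pan-leukocyte gene that encodes CD45. It further had to show at least 3 of the 6 arterial genes Gja5, Bmx, Fbln5, Olfm2, Sulf1 and Stk32a and at most 1 of the aerocyte genes Ednrb, Fibin and Tbx2 and the venous genes Slc6a2, Car8 and Bst1.

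The lungs came from wild-type male C57BL/6 mice aged 8 to 12 weeks. The control group received PBS through the tail vein, and the metastatic group received 200000 B16-F10 cells, a mouse melanoma line labeled with CellTracker green, in 100 µl of PBS. Lungs were taken 6 h later, and PECAM1-positive cells were sorted for 10x Genomics 3′ single-cell RNA sequencing, in which a unique molecular identifier (UMI) stands for 1 captured transcript. Each group held 1 library of 2 pooled mice, so that no spread between mice was measured and no difference between the libraries was tested. Intravenous injection places the tumor cells directly in the lung circulation, without a primary tumor.

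Arterial ECs line the vessels that carry blood toward the capillary bed. They are known for Notch signaling through the ligand DLL4 and targets of the HEY family, for ephrin-B2 on their surface, for connexin gap junctions, and for contact with the elastic fibers of the vessel wall. Downstream of them, the alveolar capillaries hold general capillary ECs (gCap), from which capillary ECs can be renewed, and aerocytes (aCap), large thin cells across which gases pass.

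The control and metastatic libraries held 67929614 and 64733724 UMIs, of which the arterial ECs held 611478 and 502899. Arterial ECs had medians of 7961 and 7334.5 UMIs and 2836.5 and 2780 genes per cell, against 6278.5 and 6522 UMIs in the other ECs. Levels are given as UMIs summed over the cells of a population and scaled to counts per 1000000 (CPM), in the order control, metastatic. All intervals are 95% intervals for counting error alone. They are exact Poisson limits for CPM, exact Clopper-Pearson limits for shares and exact conditional binomial limits for log2 ratios of single genes. Intervals of list medians are normal approximations from the counting errors of the members and leave out the spread among the members. For comparison, gCap were ECs with at least 3 of the 7 gCap genes Gpihbp1, Kit, Plvap, Sema3c, Lpl, Hmcn1 and Aplnr. They showed none of the aerocyte and venous genes named above (3466 and 3243 cells). Levels of the 7 gCap genes in gCap therefore follow in part from this choice. The aCap and venous ECs had at least 2 of their own 3 genes and at most 1 of the other's (1336 and 1063 aCap, 237 and 286 venous). All 3 populations were limited to cells with at most 1 arterial gene. No barcode was shared between the arterial ECs of the libraries, while 14 were shared among all ECs.

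In the control library, 3 arterial ECs stood apart by RNA of smooth muscle and were singled out after the data were seen. They held 285, 90 and 23 UMIs of a list of 10 smooth muscle and pericyte genes, together 86.1% of the 462 UMIs of this list in control arterial ECs, whereas no metastatic arterial EC held more than 5. The list came to 756 CPM (688 to 828) in control and 67.6 CPM (46.8 to 94.5) in metastatic arterial ECs. Fibroblast genes were also higher in control arterial ECs, with 38 UMIs against 5. None of the 3 cells was marked as a doublet, and the first of them held 155 UMIs of Tagln and 85 of Acta2, both genes of the contractile apparatus, beside 3 of Pecam1. Melanoma genes were at 0 UMIs in the arterial ECs of both libraries, and of the lymphatic genes Prox1, Mmrn1, Reln and Pdpn were at 0 in both.

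The arterial ECs were selected on 6 genes, whose levels are given as a description. Bmx, a cytoplasmic tyrosine kinase, was found in 87.8% and 91.9% of arterial ECs, at 335 and 324 CPM, against 12.0 and 10.1 CPM in the other ECs. Olfm2, a secreted olfactomedin-domain protein, reached 206 and 187 CPM, and Sulf1, a sulfatase that edits heparan sulfate, 204 and 213 CPM. These 3 genes carried most of the selection, each present in at least 64.5% of the cells. Gja5, the gap junction protein connexin 40 (chromosome 3, 96904693 to 97077416, plus strand of GRCm38), was at 105 CPM (80.6 to 134) in 39.2% of control cells and at 55.7 CPM (37.0 to 80.5) in 30.6% of metastatic cells. Stk32a, a serine/threonine kinase, was at 132 and 123 CPM. Fbln5, an elastic fiber protein, was at 118 and 127 CPM in arterial ECs but also at 91.8 and 147 CPM in venous ECs, so that of the 6 it separated arteries from veins least.

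Most cells lay near the threshold. Exactly 3 of the 6 genes were found in 38 control and 40 metastatic arterial ECs, 4 genes in 21 and 12, 5 genes in 13 and 8, and all 6 in 2 and 2. Just outside lay 99 control and 76 metastatic ECs with 2 arterial genes and at most 1 aerocyte or venous gene. A further 18 control and 8 metastatic ECs had at least 3 arterial genes but 2 or more aerocyte or venous genes, and these were deep cells, with medians of 13280.5 and 11502 UMIs. Leukocytes, defined by a UMI of Ptprc and no endothelial gene, were read for comparison, at medians of 4744 and 5916.5 UMIs. At least 1 of the 6 genes was seen in 16.3% (6.81 to 30.7) of 43 control and 22.7% (11.5 to 37.8) of 44 metastatic leukocytes. It was seen in 13.1% and 14.8% of the other ECs. The source of this detection was not tested. No leukocyte had 3 of them, which allows a share of up to 6.98% and 6.82%.

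Detection was also read at equal depth, after each cell had been thinned to 3000 UMIs, which left out 3 control and 1 metastatic arterial EC. Ltbp4, which the selection did not use and which encodes a latent TGF-beta binding protein, was detected in 78.9% and 75.4% of arterial ECs and 14.7% and 12.5% of gCap at that depth. Plat, tissue plasminogen activator, was detected in 80.3% and 63.9% of arterial ECs and 10.7% and 9.70% of gCap.

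Genes outside the selection followed the number of selecting genes a cell showed. The summed level of 25 arterial genes that the selection did not use was 2182 and 2417 CPM in ECs with none of the 6 genes, 3104 and 3180 CPM with 1, 4578 and 5502 CPM with 2, 7165 and 7736 CPM with 3, and 8300 and 9142 CPM with 4 or more. Over the same steps the 7 gCap genes went from 6436 and 6019 CPM to 2894 and 3243 CPM. Cells with 2 of the 6 genes thus lay between the arterial ECs and the rest on the arterial genes, yet close to the rest on the gCap genes, at 6081 and 5649 CPM. The venous genes that the selection did not use, a list led by Vwf, moved with the arterial ones, from 248 and 209 CPM with no selecting gene to 2652 and 2614 CPM with 4 or more.

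**Figure D1:**
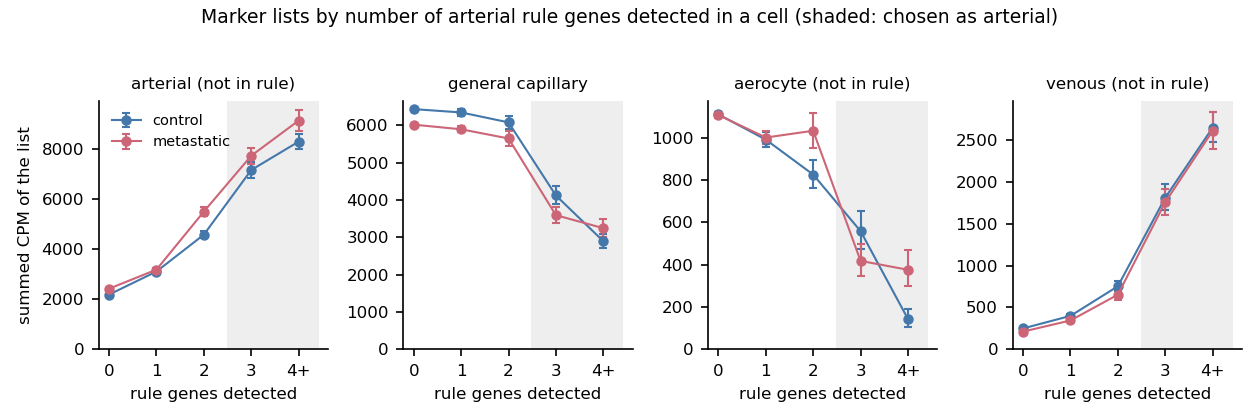
Summed CPM (y axes) of 4 marker lists in ECs grouped by how many of the 6 selecting arterial genes they showed (x axes), with at most 1 aerocyte or venous gene. Points are single libraries, control blue and metastatic red, bars are 95% Poisson intervals, and the shaded steps are the cells chosen as arterial, in which the arterial and venous lists were highest and the gCap list lowest.

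The label held for most, but not all, arterial genes outside the selection. Of the 25, 21 passed a mean of 25 CPM over the arterial and the other ECs, 14 were at least 2-fold higher in arterial ECs in both libraries and none was 2-fold lower, at medians of 2.04 and 2.00 on the log2 scale. Over all 5699 genes that passed this filter, 155 (2.72%) were 2-fold higher and 216 (3.79%) 2-fold lower in both libraries, and the median was -0.068 in each. Since the cells were chosen by arterial genes, these counts describe the cells and test nothing. The 5 aCap genes that passed were all 2-fold lower, at medians of -2.68 and -4.05. gCap genes had medians of -0.71 and -0.70, with Plvap, the protein of the diaphragms of endothelial fenestrae, near that of gCap at 1230 and 1416 CPM against 1347 and 1422 CPM.

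Among the 16 genes of the Notch pathway, 12 passed, 2 were 2-fold higher in arterial ECs in both libraries and 1 was 2-fold lower, at medians of 0.17 and 0.11. The ligand Dll4 was at 191 CPM (158 to 229) and 197 CPM (160 to 240) in arterial ECs, 81.7 and 100 CPM in gCap and 10.5 and 13.5 CPM in venous ECs. Nrarp, a feedback inhibitor that Notch induces, was at 67.1 and 45.7 CPM against 14.6 and 13.9 CPM in the other ECs. The receptor Notch1 was higher by 0.82 and 0.90 on the log2 scale, while Notch4 differed little, by 0.088 and 0.37. The target Hey1 was at 340 and 334 CPM, above the other ECs by 0.55 and 0.58 on the log2 scale. Jag1 and Jag2, the other ligands measured, were at 29.4 and 31.8 CPM and at 42.5 and 23.9 CPM, each within counting error of the other ECs in both libraries. Dll4 and Nrarp were the members past 2-fold, and the one 2-fold lower was Lfng, a glycosyltransferase that modifies Notch receptors, with 3 UMIs in each library, or 4.91 and 5.97 CPM, against 57.8 and 51.2 CPM. Hes1, a broadly expressed target, was lower by -0.69 and -0.89 on the log2 scale.

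Hey2, the HEY factor of arteries, stood at 14.7 CPM (6.73 to 27.9) in control and 43.7 CPM (27.4 to 66.2) in metastatic arterial ECs against 1.95 and 2.37 CPM in the other ECs. It rested on 9 and 22 UMIs in 8.11% and 14.5% of the cells, and at this depth it could not be followed from cell to cell. Promoters of this Notch target and of the selecting gene Gja5 are shown as examples of these groups of genes. Both are RefSeq sequences of GRCm38.p6, from 250 bases before to 50 bases after the annotated start, the first on chr10:30842734-30843033 (minus strand) and the second on chr3:97032152-97032451 (plus strand). Capitals mark GTGGGAA, the core letters bound by the Notch partner RBPJ, or its reverse complement TTCCCAC.
Hey2: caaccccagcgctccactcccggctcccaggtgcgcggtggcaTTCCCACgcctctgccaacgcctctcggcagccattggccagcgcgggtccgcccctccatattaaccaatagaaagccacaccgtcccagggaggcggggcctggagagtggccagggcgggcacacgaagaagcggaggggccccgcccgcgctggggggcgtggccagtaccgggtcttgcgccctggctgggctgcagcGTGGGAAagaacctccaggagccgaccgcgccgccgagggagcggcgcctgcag
Gja5: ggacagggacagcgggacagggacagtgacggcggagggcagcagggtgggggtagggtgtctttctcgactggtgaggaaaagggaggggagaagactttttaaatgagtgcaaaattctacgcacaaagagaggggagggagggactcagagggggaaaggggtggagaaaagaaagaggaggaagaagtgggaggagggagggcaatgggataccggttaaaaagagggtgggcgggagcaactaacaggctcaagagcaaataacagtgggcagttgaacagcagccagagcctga
The Hey2 window held 2 matches, 1 on each strand, and the Gja5 window held 0. Over all 32851 promoters of this length, 2097 (6.38%) held the motif, as did 2 of the 12 Notch pathway genes with an entry (Hey2 and Lfng), 0 of 4 selecting genes and 0 of 17 of the 25 genes highest in arterial ECs. A match is a string of letters and not a measured binding site.

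Of 16 genes listed as arterial transcription factors, 12 passed and 3 were higher in arterial ECs in both libraries. Only Mecom and Gata6 were 2-fold higher in both, and the list median was below 0, at -0.31 and -0.35. The list thus did not set arterial ECs apart as a whole. It also held factors of other ECs, such as Tbx3, so its median is not one of arterial factors alone. Mecom, a zinc finger factor, was at 180 CPM (148 to 217) and 203 CPM (165 to 246) against 17.6 and 24.3 CPM in the other ECs. Gata6 was at 242 CPM (205 to 284) and 290 CPM (245 to 341) against 24.2 and 30.0 CPM. Both were also above venous ECs, which stood at 34.7 and 39.3 CPM of Mecom and 56.1 and 54.8 CPM of Gata6. Sox17, a SOX factor of arterial specification, was not higher in these cells, with 110 and 119 CPM in arterial ECs and 219 and 289 CPM in gCap. Tbx3, a T-box factor that was highest in aCap at 988 and 967 CPM, was the member 2-fold lower, at 193 and 179 CPM. Foxf1, a lung mesenchymal and endothelial factor, was at 237 and 229 CPM against 473 and 412 CPM. Nr2f2, the factor of venous identity, was at 16.4 and 5.97 CPM and seen in 5.41% and 4.84% of arterial ECs, against 349 and 275 CPM in venous ECs.

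The elastic fiber and matrix genes had the highest median of the pathway lists, 3.21 and 3.22 on the log2 scale over the 9 of 20 that passed, with 6 at least 2-fold higher in both libraries and 1 2-fold lower. Ltbp4, which anchors latent TGF-beta and helps assemble elastin, was at 643 CPM (581 to 709) and 610 CPM (544 to 683) in arterial ECs, 252 and 246 CPM in venous ECs and 61.1 and 50.3 CPM in gCap. Fbln2, a fibulin, was at 214 and 157 CPM against 8.77 and 8.91 CPM in the other ECs, and venous ECs stayed at 9.51 and 10.6 CPM. Fn1, fibronectin, was at 52.3 and 69.6 CPM against 4.46 and 4.78 CPM. Mgp, matrix Gla protein, an inhibitor of calcification and of BMP signaling, was at 1508 CPM (1412 to 1608) and 1865 CPM (1748 to 1988) against 96.5 and 98.2 CPM. Fbn1, the microfibril protein fibrillin-1, was at 75.2 and 71.6 CPM against 4.10 and 4.33 CPM in gCap. Eln, elastin itself, was at 301 and 193 CPM against 89.0 and 93.8 CPM, but 30.4% of its control UMIs lay in the first of the 3 cells with smooth muscle RNA, and without those cells its control level was 197 CPM. The member 2-fold lower was Mfap2, a microfibril-associated protein, at 57.2 and 65.6 CPM against 222 and 197 CPM. Of 17 basement membrane genes 9 passed, and Lamb2, a laminin subunit, was the 1 that was 2-fold higher. The collagens Col4a1 and Col4a2 were lower in arterial ECs, at 307 and 268 CPM against 925 and 937 CPM and at 150 and 115 CPM against 508 and 511 CPM.

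Of 21 guidance genes 15 passed, and Efnb2, Plxnd1 and Ntn4 were 2-fold higher while Sema3c and Sema3f were 2-fold lower in both libraries. Efnb2, ephrin-B2, was found in 98.6% of control arterial ECs and in every metastatic one, at 1043 CPM (964 to 1128) and 1074 CPM (985 to 1168). It was at 496 and 499 CPM in gCap, 299 and 308 CPM in aCap and 71.3 and 68.3 CPM in venous ECs, the same order in both libraries. Cxcl12, the ligand of the chemokine receptor CXCR4, was at 1212 CPM (1126 to 1302) and 1481 CPM (1377 to 1592) against 370 and 453 CPM in gCap and 92.3 and 117 CPM in venous ECs. Sema3g, a secreted semaphorin, was at 482 and 428 CPM in arterial and 30.9 and 19.6 CPM in venous ECs. Ntn4, a laminin-related netrin, was at 195 and 211 CPM against 49.3 and 49.2 CPM in the other ECs, and Plxnd1, a semaphorin receptor, at 76.9 and 105 CPM against 21.0 and 45.9 CPM. Sema3c, a semaphorin of gCap, was lower by -2.46 and -2.79 on the log2 scale. Efnb2, Cxcl12 and Sema3g were each lower in venous ECs than in gCap, so that arterial and venous ECs stood at opposite ends of the EC populations for them.

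Of 30 vasoactive signals and channels, 14 passed and 1 was 2-fold higher in both libraries. Ptgs1, cyclooxygenase 1, and Nostrin, a trafficking factor of nitric oxide synthase, were 2-fold lower. The higher gene was Edn1, the vasoconstrictor peptide endothelin-1, at 572 CPM (514 to 636) and 863 CPM (784 to 948) against 236 and 309 CPM in the other ECs. Nos3, endothelial nitric oxide synthase, was sparse, with 40.9 and 25.9 CPM against 13.6 and 15.5 CPM. Among 14 junction genes, 12 passed and 2 were 2-fold higher, namely Cdh13, T-cadherin, at 98.1 and 121 CPM against 5.48 and 5.44 CPM, and Jam2, a junctional adhesion molecule, at 196 and 183 CPM against 75.3 and 79.8 CPM. Gja4, connexin 37, which is widely used as an arterial gene, did not set the cells apart, with 101 and 199 CPM against 101 and 171 CPM in the other ECs. Gja1, connexin 43, was at 0 and 1 UMI.

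The genes with the highest arterial to other EC ratio, ranked by the library in which the ratio was smaller, included several outside the arterial lists. Ppp2r2c, a regulatory subunit of protein phosphatase 2A, was at 47.4 CPM (31.8 to 68.1) and 63.6 CPM (43.5 to 89.8) in arterial ECs, 0.476 and 0.352 CPM in the other ECs and 0 UMIs in aCap and venous ECs. Enpp6, a choline-specific phosphodiesterase, was at 88.3 and 69.6 CPM against 1.47 and 1.01 CPM. Esr2, estrogen receptor beta, was at 62.1 CPM (44.0 to 85.3) and 59.7 CPM (40.2 to 85.2) against 1.30 and 0.586 CPM, in 33.8% and 32.3% of the cells. These 3 genes were thus seen in a minority of arterial ECs and at far lower CPM in the other ECs. The other ECs numbered 6804 and 6095 cells, so the UMIs of these genes need not lie mostly in arterial ECs. Htra1, a secreted serine protease, was at 85.0 and 47.7 CPM against 0.779 and 1.10 CPM. Fads3, of the fatty acid desaturase family, was at 85.0 and 85.5 CPM, and Cd55, an inhibitor of complement on the cell surface, at 88.3 and 93.5 CPM, against 2.08 and 2.25 CPM and 2.19 and 2.70 CPM. Ifi207, an interferon-inducible gene of a family of close copies between which reads may be split, was at 113 and 189 CPM against 2.38 and 1.92 CPM.

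Other genes of the same ranking were seen in at least 50.0% of arterial ECs in each library. Plat, whose product activates plasminogen on the vessel surface, was at 661 CPM (598 to 728) and 698 CPM (627 to 775) in arterial ECs, 43.2 and 41.6 CPM in gCap and 6.66 and 6.55 CPM in venous ECs. Mgst1, a microsomal glutathione transferase, was at 504 and 543 CPM against 29.7 and 30.5 CPM in the other ECs. Atp13a3, a polyamine transporter, was at 350 and 420 CPM against 11.7 and 15.7 CPM, and Thsd7a, a thrombospondin-domain protein, at 126 and 129 CPM against 4.72 and 3.98 CPM. Adgrg6, an adhesion G protein-coupled receptor, was at 427 and 410 CPM in arterial, 167 and 206 CPM in venous and 10.0 and 10.1 CPM in gCap.

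Part of the arterial profile was shared with veins and lower in capillaries. Vwf, von Willebrand factor, which captures platelets, was at 1864 and 1716 CPM in arterial ECs, 2320 and 2310 CPM in venous ECs and 98.2 and 96.2 CPM in gCap. Cytl1, a secreted cytokine-like protein, was at 469 and 408 CPM in arterial, 328 and 384 CPM in venous and 2.53 and 2.38 CPM in gCap. Myof, myoferlin, a protein of membrane repair, was at 206 and 191 CPM in arterial, 185 and 170 CPM in venous and 3.91 and 2.29 CPM in gCap. Bgn, the matrix proteoglycan biglycan, and Vcam1, the leukocyte adhesion molecule, were higher in venous ECs, with 247 and 243 CPM of Bgn and 265 and 433 CPM of Vcam1 in arterial ECs against 400 and 458 CPM and 570 and 687 CPM in venous ECs. Large-vessel genes of this kind therefore told arteries and veins together from capillaries, and Efnb2, Cxcl12, Plat and Dll4 told arteries from veins.

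**Figure D2:**
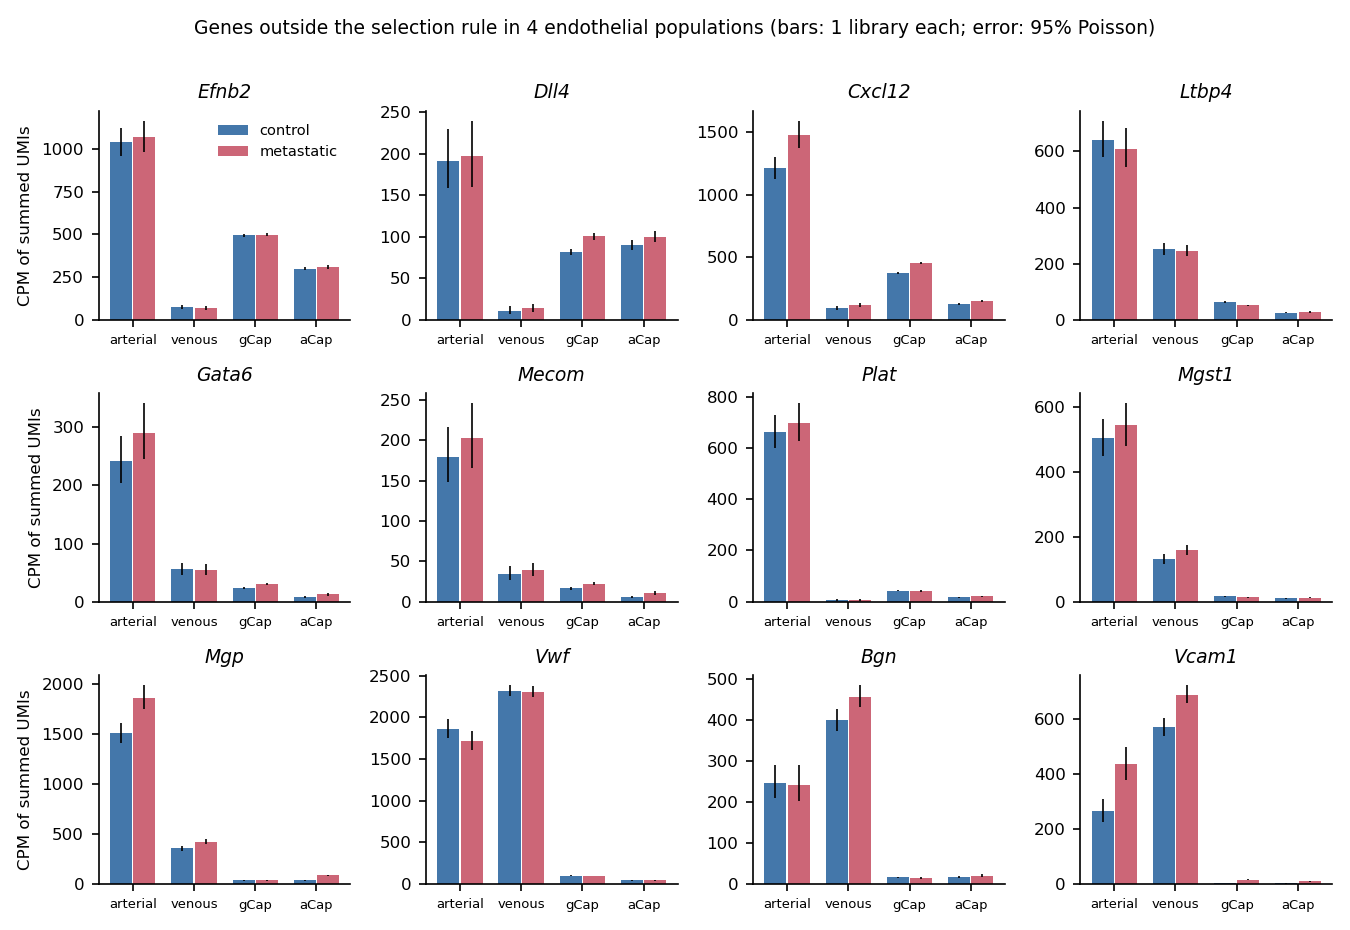
CPM (y axes, from 0) of 12 genes that the selection did not use, in arterial, venous, gCap and aCap ECs (x axes). Bars are single libraries, control blue and metastatic red, with 95% Poisson intervals. The upper rows were highest in arterial ECs, whereas Vwf, Bgn and Vcam1 in the lowest row were higher in venous ECs.

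The 12 genes lowest in arterial against other ECs included genes of aCap, surfactant genes, Ppbp, a platelet chemokine, Sox11, a transcription factor, and Lfng, which modifies Notch receptors. Car4, the carbonic anhydrase of aCap, was at 24.5 and 23.9 CPM against 1445 and 1348 CPM in aCap. Edil3, an integrin-binding matrix protein, and Chst1, a sulfotransferase, had 0 UMIs in control and 1 UMI each in metastatic arterial ECs, against 71.8 and 64.1 CPM and 48.5 and 52.6 CPM in the other ECs. Scn7a, a sodium channel, was at 65.4 and 67.6 CPM against 864 and 823 CPM in aCap and 539 and 555 CPM in gCap. The 12 free RNA genes as a list had 7 of the 8 that passed 2-fold lower in arterial than in other ECs. Without its S100a genes, this list held 0.274% and 0.340% of UMIs in the low-count barcodes, against 0.0531% and 0.0332% in arterial ECs. The part of free RNA in the low values was not tested. Immediate early genes, which dissociation is known to induce, were lower in arterial ECs as a list, at medians of -0.89 and -0.94, with Egr1 at 747 and 606 CPM against 1234 and 1241 CPM.

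Arterial ECs were not uniform, and Mgp varied widely among them. It had no UMI in 31 control and 24 metastatic cells, 1 to 9 UMIs in 25 and 25, and 10 or more in 18 and 13, with highest values of 287 and 183 per 10000 UMIs. In the cells with 10 or more Mgp UMIs, Cytl1 was at 1661 and 1729 CPM and Cdh13 at 286 and 494 CPM, against 20.8 and 0 CPM and 29.2 and 0 CPM in those with none. Bgn was at 617 and 668 CPM against 113 and 138 CPM, and Vwf at 2679 and 2222 CPM against 1075 and 1202 CPM. Gpihbp1 and Sema3c, both among the genes used to choose gCap, went the other way in the same cells. Gpihbp1, which anchors lipoprotein lipase, was at 414 and 265 CPM against 1150 and 1207 CPM. Sema3c was at 31.8 and 0 CPM against 358 and 246 CPM. Plvap, a protein of capillary fenestrae, was at 1190 and 476 CPM against 1196 and 1813 CPM, lower in the metastatic library alone. Efnb2 differed less, with 1018 and 960 CPM against 1059 and 1207 CPM. Other genes higher in arteries than in veins went both ways in the cells with 10 or more Mgp UMIs. Dll4 was lower, at 159 and 91.5 CPM against 208 and 291 CPM. Cxcl12 was lower as well, at 1075 and 969 CPM against 1350 and 1562 CPM. Ltbp4 was higher, at 980 and 860 CPM against 475 and 488 CPM. Fbln2 was also higher, at 375 and 421 CPM against 62.5 and 49.3 CPM. Vcam1, higher in veins, was at 598 and 649 CPM against 50.0 and 123 CPM. The selecting gene Bmx was also higher, at 484 and 384 CPM against 229 and 251 CPM. Median depth was similar in these groups, at 8019 and 6806 UMIs against 7559 and 6995 UMIs.

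Across single cells, Pearson correlations of Mgp were 0.69 and 0.73 with Cytl1, 0.59 and 0.62 with Cdh13, 0.60 and 0.54 with Bgn and 0.51 and 0.59 with Fbln2, over 74 and 62 cells on the scale log2 of 1 plus UMIs per 10000. They were -0.53 and -0.62 with Gpihbp1, -0.63 and -0.60 with Lpl, lipoprotein lipase, and -0.60 and -0.68 with the fatty acid transporter Cd36. Of the 240 genes compared, 9 reached 0.4 and 7 reached -0.4 in both libraries. The cells of a library share their mice and their library, Mgp was chosen for this after its values were seen, and single cells held 39.4% and 42.9% of all Cytl1 UMIs, so that the values are a description.

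**Figure D3:**
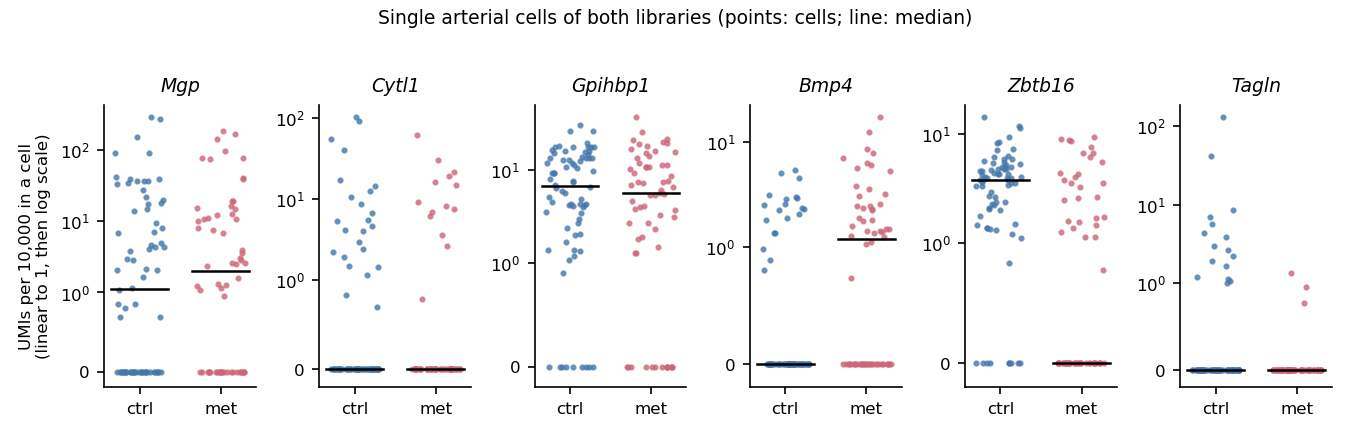
UMIs per 10000 (y axes, linear up to 1 and logarithmic above) of 6 genes in each arterial EC of the control (ctrl, blue) and metastatic (met, red) library, with points for cells and lines for medians. Mgp and Cytl1 spread over a wide range in both libraries, the median of Bmp4 was 0 in control and 1.18 in metastatic cells, that of Zbtb16 was 3.77 and 0, and the highest Tagln values lay in a few control cells.

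Arterial ECs made up 1.08% (0.846 to 1.35) of control and 1.01% (0.773 to 1.29) of metastatic ECs. The difference of -0.069 percentage points (Newcombe interval -0.420 to 0.287) lay within counting error. With all cells thinned to 3000 UMIs before the selection, the shares were 0.380% and 0.481% and the difference turned to 0.101 percentage points. A shift in the arterial share was therefore not detectable at this depth, and fewer cells of a type and a loss during dissociation or sorting cannot be told apart.

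To ask how arterial ECs differed after the arrival of melanoma cells, UMIs summed over arterial ECs were compared between the libraries for 4546 genes with at least 40 UMIs. Of these, 48 (1.06%) were at least 2-fold higher and 52 (1.14%) at least 2-fold lower in the metastatic library, around a median log2 ratio of 0.0019. Counting intervals lay wholly above 0 for 272 genes and below 0 for 252, and they do not include the spread between mice. In the other ECs, with many more UMIs behind each value, 13 and 4 of the same genes passed 2-fold. The central 95% of genes lay between -0.82 and 0.81 in arterial and between -0.41 and 0.45 in the other ECs. The genes described next were those whose interval bound nearest 0 was farthest from it, among genes with at least 100 UMIs.

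Bmp4, a ligand of the bone morphogenetic protein family (chromosome 14, 46383520 to 46390669, minus strand of GRCm38), led the genes higher in the metastatic library. It had 39 UMIs in control and 104 in metastatic arterial ECs, 63.8 CPM (45.4 to 87.2) and 207 CPM (169 to 251), and was seen in 27.0% and 54.8% of the cells. The log2 ratio was 1.70 (1.15 to 2.27) in arterial and 0.90 (0.81 to 1.00) in the other ECs, and at 3000 UMIs per cell the share of arterial ECs with a UMI was 16.9% and 42.6%, against 8.55% and 12.5% of gCap. The intervals of the CPM values did not overlap, and leaving out the cell with the most UMIs in each library left a log2 ratio of 1.62. Venous ECs had 68.0 and 167 CPM.

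Kdr, the VEGF receptor VEGFR2, was at 126 CPM (99.4 to 157) and 264 CPM (221 to 313), a log2 ratio of 1.07 (0.65 to 1.49) against 0.34 in the other ECs. Even so it remained lower in arterial than in other ECs, which had 464 and 589 CPM. Esm1, a proteoglycan of endothelial tip cells, was at 76.9 and 175 CPM, a log2 ratio of 1.19 (0.66 to 1.73), but in only 18.9% and 24.2% of the cells and with 35.2% of its metastatic UMIs in 1 cell. Among cells with 4 or more of the selecting genes the ratio of Esm1 turned to -1.66. Vegfa itself was at 185 and 314 CPM, with a log2 ratio of 0.77 (0.41 to 1.13) in arterial and 0.82 in the other ECs. The 6 of 11 VEGF and angiopoietin genes that passed all had a ratio above 0, 3 of them with an interval above 0, at a median of 0.45 (0.23 to 0.67) against 0.16 in the other ECs. This median was 0.16 among arterial ECs with 2 or more selecting genes, 0.19 among those with no aerocyte or venous gene and 0.13 over genes of at least 100 UMIs.

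Lmo2, a transcriptional cofactor of blood and endothelial cells, was at 68.7 and 185 CPM in the control and metastatic arterial ECs and was seen in 40.5% and 64.5% of them. Its log2 ratio was 1.43 (0.89 to 1.99) in arterial and 0.39 (0.34 to 0.43) in the other ECs. Sox4, a SOX factor, was at 146 and 282 CPM, with a ratio of 0.96 in arterial and 1.09 in other ECs, and -0.040 among cells with 4 or more selecting genes. Gja4 was at 101 and 199 CPM, a ratio of 0.97 (0.50 to 1.45) against 0.76. Ifi203, of the same family of close copies as Ifi207, was at 89.9 and 195 CPM, Impdh1, an enzyme of guanine nucleotide synthesis, at 76.9 and 161 CPM, and Chd1, a chromatin remodeler, at 73.6 and 153 CPM. The ratio of Chd1 was 1.06 (0.51 to 1.62) in arterial and 0.14 (0.08 to 0.20) in the other ECs. Akap12, a scaffold of protein kinase A, was at 263 and 435 CPM, with 27.4% of the metastatic UMIs in 1 cell, and Plscr1, a phospholipid scramblase, at 170 and 294 CPM.

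Genes that glucocorticoids induce were lower in the metastatic library. Of 12 such genes 11 passed, 4 were 2-fold lower and none was 2-fold higher, and the interval lay below 0 for 9, at a median of -0.87 (-1.11 to -0.63) in arterial and -0.48 in the other ECs. Zbtb16, a zinc finger repressor (chromosome 9, 48654297 to 48836222, minus strand of GRCm38), had 248 UMIs in control and 96 in metastatic arterial ECs, 406 CPM (357 to 459) and 191 CPM (155 to 233), and was seen in 87.8% and 46.8% of the cells. Its log2 ratio was -1.09 (-1.44 to -0.74) in arterial and -1.30 in the other ECs. Tsc22d3, the anti-inflammatory protein GILZ, was at 260 and 139 CPM, a ratio of -0.90 (-1.33 to -0.49). Ddit4, an inhibitor of mTORC1, was at 229 and 125 CPM, and Fkbp5, a co-chaperone of the glucocorticoid receptor, at 129 and 79.5 CPM. Klf9 was lower by less in arterial than in other ECs, with ratios of -0.30 (-0.50 to -0.10) and -0.69 (-0.71 to -0.67), while for Sgk1, a kinase, the ratio was -0.61 in arterial and 0.13 in the other ECs.

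Mt1, a metallothionein of this list, illustrates how few cells can carry a value. It was at 275 CPM in control and 43.7 CPM in metastatic arterial ECs, a log2 ratio of -2.65 (-3.36 to -2.01), while in the other ECs the ratio was 1.47. It was seen in 14.9% and 14.5% of the arterial ECs, 54.2% of its control UMIs lay in 1 cell, and without the cell with the most UMIs in each library the ratio was -2.29. Without the 3 control cells that carried smooth muscle RNA it was -2.48 (-3.20 to -1.82). Errfi1, an inhibitor of the EGF receptor, went from a ratio of -1.58 to -0.62 (-1.60 to 0.32) without them, and the median of the whole list from -0.87 to -0.68.

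Other genes lower in the metastatic library had steadier support over cells. Fam107a, an actin-associated stress-response protein, was at 267 CPM (227 to 311) and 105 CPM (78.9 to 138), in 77.0% and 45.2% of the cells, and its log2 ratio was -1.34 (-1.81 to -0.88) in arterial and -1.08 in the other ECs. Abcg2, an efflux transporter, was at 263 and 127 CPM, a ratio of -1.05 against -0.59. Acer2, an alkaline ceramidase of the Golgi, was at 736 and 451 CPM, a ratio of -0.71 (-0.94 to -0.47) against -0.26 (-0.29 to -0.23). Epb41, a protein of the membrane skeleton, was at 563 and 326 CPM, with -0.79 in arterial and -0.73 in other ECs. Sh3bgrl was at 265 and 141 CPM and Ccdc85b at 157 and 75.6 CPM, and for both the ratio in the other ECs was near 0, at -0.07 and -0.08. Lgalsl, a galectin-like protein, was at 182 and 83.5 CPM.

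**Figure D4:**
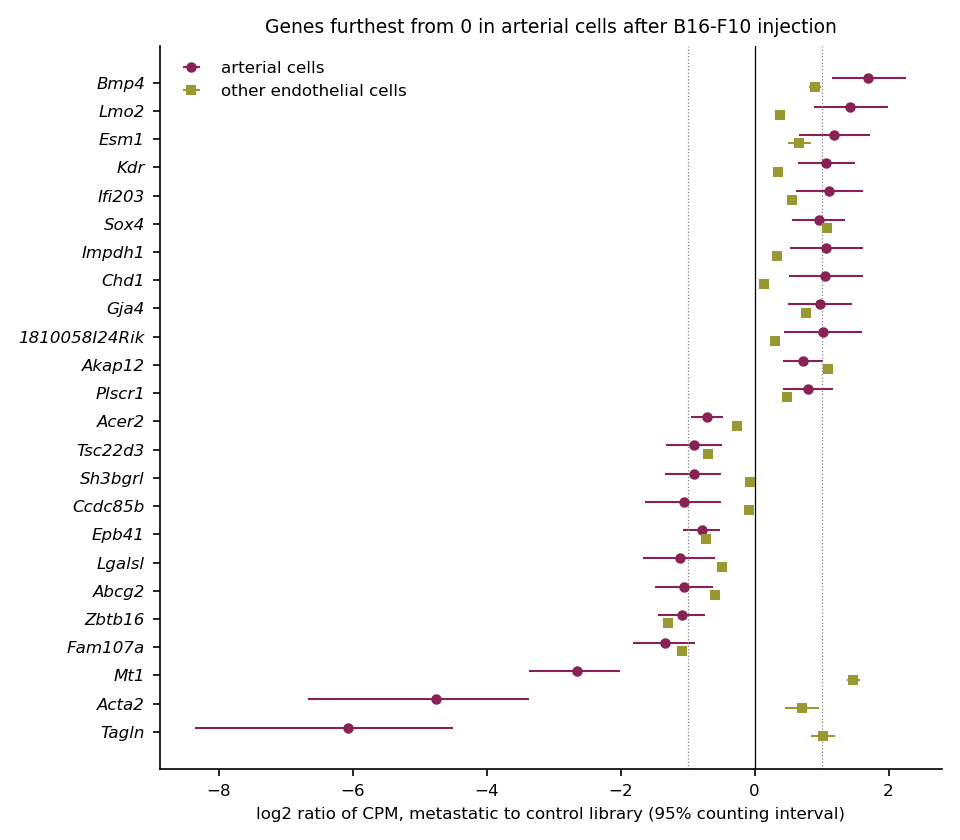
Log2 ratio of CPM, metastatic to control library (x axis), of the 12 genes with the highest and the 12 with the lowest ratios in arterial ECs (y axis), ranked by the interval bound nearest 0. Circles are arterial ECs and squares the other ECs, bars are 95% counting intervals and dotted lines mark 2-fold. Bmp4 at 1.70 led the higher genes, and Tagln, Acta2 and Mt1 had arterial and other EC values on opposite sides of 0.

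The lowest ratios of all followed the 3 control cells with smooth muscle RNA. Tagln had 244 UMIs in control and 3 in metastatic arterial ECs, a log2 ratio of -6.06 (-8.35 to -4.50), and Acta2 had 132 and 4 UMIs, a ratio of -4.76 (-6.66 to -3.37). In the other ECs the ratios were 1.02 and 0.71. Without the 3 cells the arterial ratios were -3.13 (-5.49 to -1.45) and -0.81 (-2.99 to 1.09). The ratio of Eln was -0.64 (-1.01 to -0.28), that of Rbp7, a retinol-binding protein, -1.30 and that of Angptl4, an inhibitor of lipoprotein lipase, -3.04, in each case of the metastatic to the control library. Without the 3 cells the ratio of Eln was -0.03 (-0.44 to 0.38), that of Rbp7 -0.49 (-1.37 to 0.36) and that of Angptl4 -1.51 (-3.58 to 0.19), so that all 3 intervals reached across 0 among the remaining 71 control cells. Over all genes, leaving the 3 cells out gave 49 genes 2-fold higher and 43 lower.

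Of 13 growth factor ligands 5 passed, all with a ratio above 0, at a median of 0.74 (0.45 to 1.03) in arterial and 0.82 in the other ECs. Beside Bmp4 and Vegfa these included Edn1, whose log2 ratio was 0.59 (0.39 to 0.80) against 0.39 in the other ECs, and which was seen in 67.6% of control and 83.9% of metastatic arterial ECs. Hbegf, an EGF receptor ligand, was at 39.2 and 65.6 CPM, with an interval from -0.06 to 1.56. Bmp6, another BMP ligand, had a ratio of 0.74 (0.36 to 1.12) against 0.27 (0.23 to 0.31), and Eng, a BMP co-receptor, a ratio of 0.45 (0.26 to 0.63) against 0.34. Of the 19 BMP and ALK1 genes 13 passed, their median was 0.028, and Bmp4 was the 1 member past 2-fold. The targets Id1 and Id3 were at 1164 and 1068 CPM and at 1264 and 1438 CPM.

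Adhesion molecules and chemokines had a median of 0.32 (0.09 to 0.55) in arterial and 0.33 in the other ECs over the 7 of 13 that passed. Vcam1, with 162 and 218 UMIs, had a log2 ratio of 0.71 (0.41 to 1.01) against 0.37, but 38.3% of its control UMIs lay in 1 cell. Icam1, the ligand of leukocyte integrins, was at 164 and 229 CPM, a ratio of 0.48 (0.08 to 0.88), and Cxcl16, a membrane-bound chemokine, at 70.3 and 137 CPM, a ratio of 0.96 (0.39 to 1.55) against 0.82. Sele, E-selectin, had 5 UMIs in 1 control cell and 31 UMIs in 5 metastatic cells, 77.4% of them in 1 cell, and Cxcl10, an interferon-induced chemokine, 0 UMIs and 15 UMIs in 4 cells. Antigen presentation genes had ratios above 0 for all 9 of 14 that passed, at a median of 0.27 against 0.31 in the other ECs, with Psmb8, a subunit of the immunoproteasome, at 150 and 217 CPM. Cd74, the invariant chain of MHC class II, was the 1 member past 2-fold, at 27.8 and 57.7 CPM, with 51.7% of its metastatic UMIs in 1 cell, and remained below the other ECs, at 142 and 307 CPM.

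Genes that the study names as markers of the reactive capillary state (rCap) were read in arterial ECs as well. The study chose this list on data that include these libraries, so it is not independent evidence. Of the 7, 4 passed, at a median of -0.43 (-0.80 to -0.06) in arterial and 0.18 in the other ECs. The 4 ran from -0.95 to 0.68, with 1 interval above and 1 below 0, so the median rests on few and unlike values. This median turned to 0.45 among cells with 2 or more of the selecting genes. Pim3, a serine/threonine kinase, was at 142 and 229 CPM, a ratio of 0.68 (0.27 to 1.10) against 0.08, and was seen in 47.3% and 54.8% of the cells. Osmr, a receptor subunit for oncostatin M, was at 149 and 135 CPM, in 67.6% and 54.8% of the cells, a ratio of -0.14 (-0.61 to 0.33) against 0.26, and Tmem252 was at 154 and 79.5 CPM, a ratio of -0.95 (-1.52 to -0.40) against 0.37. Inhbb, the activin beta-B subunit, had 3 UMIs in each library, while in the other ECs its ratio was 2.67, and Bcl3, an NF-kB cofactor, had 6 and 5 UMIs against a ratio of 1.44 in the other ECs. The arterial intervals of Inhbb, from -2.62 to 3.18, and Bcl3, from -2.03 to 1.99, were too wide to place them.

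For 5 lists used to describe arterial ECs, the median ratio between the libraries lay close to 0. Medians were -0.05 for the Notch pathway (8 genes), 0.05 for the transcription factors (12) and -0.07 for elastic fibers (8). They were 0.01 for guidance (15) and -0.07 for vasoactive signals (13). Of these 5 lists, only the Notch and elastic fiber lists had medians above 0 in arterial against other ECs in both libraries. Intervals between the libraries lay above 0 for 5 vasoactive genes, 2 guidance genes and 1 elastic fiber gene. They lay below 0 for 2 elastic fiber genes. In these lists no gene with at least 40 UMIs was 2-fold higher or lower. Hey2, a Notch target under that minimum, had 9 and 22 UMIs, or 14.7 and 43.7 CPM, a log2 ratio of 1.57 (0.40 to 2.87). Dll4 had a log2 ratio of 0.04 (-0.36 to 0.44), Efnb2 0.04 (-0.13 to 0.21), Plat 0.08 (-0.13 to 0.29) and Ltbp4 -0.07 (-0.29 to 0.14). Cxcl12 and Mgp were above 0, at 0.29 (0.14 to 0.44) and 0.31 (0.17 to 0.44), and Gja5, which took part in the selection, was at -0.91 (-1.61 to -0.25). Shear stress genes had a median of -0.19 (-0.30 to -0.08) against -0.12 in the other ECs, with Klf2, the factor induced by laminar flow, at 2512 and 2140 CPM and Klf4 at 635 and 483 CPM. Interferon, JAK-STAT and heat shock lists had medians of -0.07, 0.04 and 0.05 in arterial and 0.29, 0.19 and 0.22 in the other ECs, from 5, 9 and 8 genes. NF-kB targets (7), junctions (12) and TGF-beta genes (5) had medians of 0.38, 0.17 and 0.32 in arterial and 0.37, 0.02 and 0.16 in the other ECs. The TGF-beta median had an interval from -0.05 to 0.70 and turned to -0.40 with 4 selecting genes and to -0.11 over genes of at least 100 UMIs. Lower medians were found for basement membrane genes (9), at -0.38 against 0.02, although Nid1, a linker of laminin and collagen, was at 40.9 and 91.5 CPM, and for lipid handling genes (6), at -0.46 against -0.17. The basement membrane median was -0.019 without the 3 control cells with smooth muscle RNA and -0.049 with no aerocyte or venous gene, and the lipid handling median was 0.066 with 4 selecting genes. Immediate early genes (12) had a median of -0.15 against 0.02, which turned to 0.14 without those 3 cells and to 0.065 with 2 selecting genes. Of the clock genes, Tef, a transcription factor of the Dbp phase, was at 65.4 and 23.9 CPM, and the Bmal1 phase had a median of 0.23 over 2 genes.

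**Figure D5:**
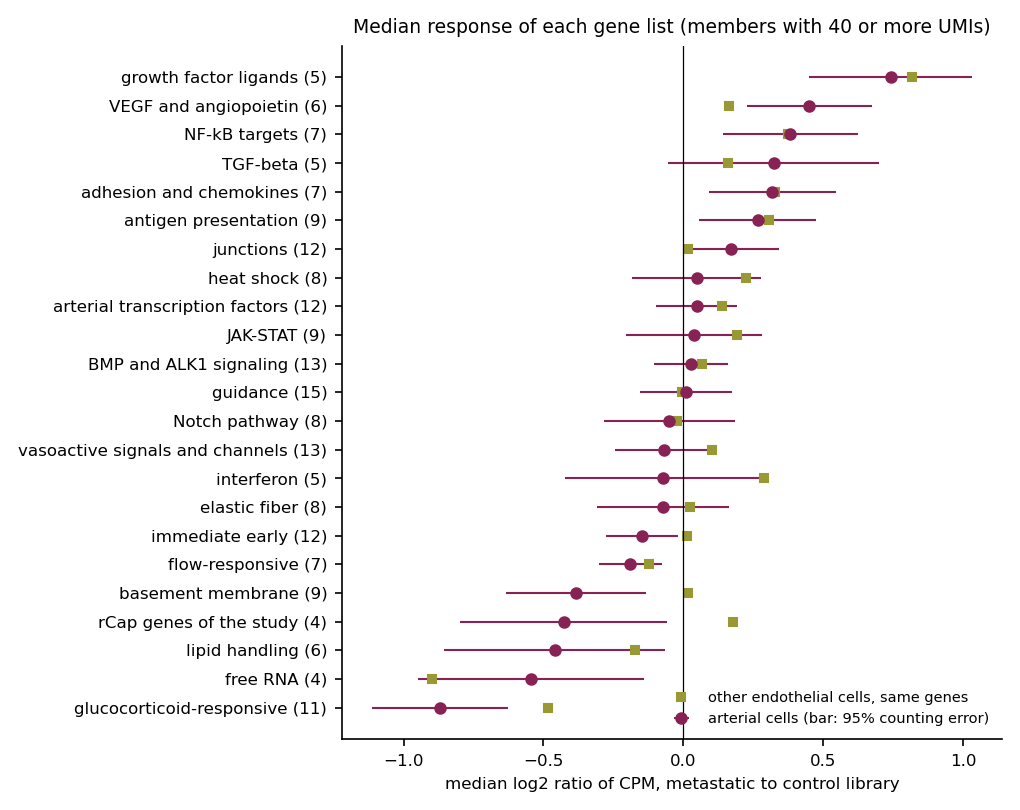
Median log2 ratio of CPM, metastatic to control library (x axis), of the genes of each list with at least 40 UMIs, whose number stands in parentheses (y axis). Circles are arterial ECs with 95% counting error of the median and squares the same genes in the other ECs. Growth factor ligands were highest at 0.74 and glucocorticoid-responsive genes lowest at -0.87.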

How the data were processed

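Cells of 2 lungs per group were pooled, sorted and sequenced as 1 library per group. The authors deposited raw UMI counts per gene and barcode from Cell Ranger (version 3.1.0 per the file headers) on mm10; the annotation release is not given in the sources used here. Arterial cells were found in these counts by the stated rule, and the members and gene lists were chosen with earlier results of these data known. UMIs were summed per library and population and compared as CPM ratios, for genes with 25 CPM on average (populations) or 40 UMIs (libraries). With 1 library per group nothing was tested between groups, and intervals cover counting error only. Genes were named by the 25 lists, by the 25 highest and 12 lowest arterial to other EC ratios (at least 50 CPM in the higher population), and by the 12 highest and 12 lowest metastatic to control ratios (at least 100 UMIs), ranked by the value or bound nearest 0. Doublets, scored against simulated ones (0.8% per 1000 cells), were kept, 5 and 2 of them arterial. Interval scripts were tested on simulated data. Alternatives are given in the closing section. Tools were Python 3.11.15, numpy 2.4.6, scipy 1.17.1, pandas 2.3.3, scikit-learn 1.9.0, matplotlib 3.10.9 and, for TMM factors, edgeR 4.0.16 in R 4.3.3.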

Additional observations from a re-analysis of the deposited data

Results flagged for a closer look

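Only genes of the gene lists and the genes ranked by their ratio between the libraries were searched here, among those with at least 40 UMIs. For 16 of them the metastatic to control log2 ratio lay on opposite sides of 0 in arterial and in other ECs. Both counting intervals were clear of 0. The remaining genes were not searched, so the count gives no share over all 4546 genes with that many UMIs. The difference between the populations was not tested, since each group held 1 library. Below 0 in arterial and above 0 in other ECs were Tagln (-6.06 against 1.02), Acta2 (-4.76 against 0.71), Mt1 (-2.65 against 1.47), Mt2 (-2.53 against 1.79), Errfi1 (-1.58 against 0.12), Tmem252 (-0.95 against 0.37), Gja5 (-0.91 against 0.72), Kit (-0.68 against 0.22), Eln (-0.64 against 0.08), Sgk1 (-0.61 against 0.13) and Hsp90aa1 (-0.36 against 0.32). Above 0 in arterial and below 0 in other ECs were Flt4 (0.93 against -0.15), Jund (0.29 against -0.06), Ece1 (0.22 against -0.10), Cav1 (0.20 against -0.10) and Id3 (0.19 against -0.04). Without the 3 control cells that carried smooth muscle RNA, the arterial intervals of Acta2, Errfi1 and Eln reached across 0. Mt2, a second metallothionein, had 82.9% of its control UMIs in 1 cell, and Gja5 took part in the selection of the cells.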

How the results depend on the processing

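The difference in arterial share between the libraries stayed within its interval under all 8 alternatives, although its direction turned when cells were thinned. The shares themselves were 2.52% and 2.24% with 2 selecting genes required, 0.523% and 0.357% with 4, 0.698% and 0.682% with no aerocyte or venous gene, and 0.380% and 0.481% after thinning. Counts of genes past 2-fold depended on the UMI filter: 48 higher and 52 lower became 1747 and 1395 with every gene of 1 UMI or more, and 8 and 8 with at least 100 UMIs. Free RNA, estimated from the free RNA list without its S100a genes, came to 19.4% of UMIs in control and 9.76% in metastatic arterial cells. Subtracting it gave 175 and 90. With 2 selecting genes required, 90 genes in place of 155 were 2-fold higher in arterial than in other ECs. Of the list medians, 227 values stayed within their counting error and 26 did not. With 4 selecting genes required, the median was 0.28 for the transcription factors, 0.45 for junctions, 0.21 for BMP and -0.40 for TGF-beta. At that setting it was 0.066 for lipid handling, 0.64 for NF-kB and -0.35 for immediate early genes. With 2 required it was 0.16 for VEGF, 0.45 for rCap, -0.58 for glucocorticoid and 0.065 for immediate early genes. With no aerocyte or venous gene allowed it was -0.049 for basement membrane, 0.18 for guidance, 0.19 for VEGF, 0.32 for JAK-STAT and 0.48 for antigen presentation. At 100 UMIs it was 0.19 for BMP, -0.11 for TGF-beta and 0.13 for VEGF, and at 1 UMI -0.29 for vasoactive and 0.60 for adhesion genes. With free RNA subtracted it was 0.32 for interferon, 0.59 for heat shock and 1.30 for the free RNA genes themselves. Without the 3 cells with smooth muscle RNA it was -0.019 for basement membrane and 0.14 for immediate early genes. Of the values of single named genes, 270 stayed within their interval, 15 lay outside it with the direction kept and 2 turned. Esm1 (-1.66) and Sox4 (-0.040) reversed with 4 selecting genes. The cause of these shifts was not tested beyond the smaller numbers of genes or cells that each setting leaves. Leaving out those 3 cells, or each gene's largest cell, was chosen after seeing the data. No paired analysis was possible because each group held 1 library, and for the same reason no replicate could be left out.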

Other observations

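Among genes that did not pass the 25 CPM filter, Bmp2, a BMP ligand, had 9 UMIs in control and 12 in metastatic arterial ECs, 14.7 and 23.9 CPM against 2.71 and 2.46 CPM in the other ECs. Lama3, a laminin subunit, had 7 and 4 UMIs, 11.4 and 7.95 CPM against 0.346 and 0.445 CPM. Foxc1, a forkhead factor, was at 13.1 and 23.9 CPM in arterial ECs but at 88.0 and 83.5 CPM in venous ECs. Selp, P-selectin, which is stored with Vwf, was at 57.3 and 174 CPM in the cells with 10 or more UMIs of Mgp and at 0 in those without Mgp. These genes were singled out after their values were seen.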
